A study of Mus musculus with 6 samples.

Results

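The coagulation and fibrinolysis genes described here are 32 genes, chosen by their symbols in the deposited gene list of 32285 genes: the clotting factors of the contact, intrinsic, tissue factor and common pathways, the fibrinogen chains, the anticoagulants, the enzymes and regulators of fibrin breakdown, and the thrombin receptor F2r. All 32 were found in each of the 6 libraries. Single-nucleus RNA was measured in liver of 6 male DIAMOND mice, a cross of 129A1/SvIm and C57BL/6J that develops fatty liver disease and then hepatocellular carcinoma on a Western diet. Diets began at an age of 2 months. The Ctrl group had chow for 40 weeks, the Pre-T group a Western diet (high-fat food with sugar water) for 40 weeks, before tumors, and the Post-T group the same Western diet for 48 weeks, after tumors had formed, with 2 mice in each group. The Post-T libraries are titled as tumor while their tissue field reads liver, so the part of malignant tissue in them is not known, and 8 more weeks of diet and age cannot be told apart from tumor formation. Values are levels, the UMIs (distinct captured RNA molecules) of a gene per 10000 UMIs of all genes in the same nuclei, summed per mouse.

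Blood clots through a cascade of proteases made largely by hepatocytes. The contact factors and tissue factor start it, factor X with its cofactor factor V turns prothrombin into thrombin, and thrombin turns fibrinogen into fibrin, which factor XIII cross-links. Endothelial cells hold the brakes on their surface, with thrombomodulin and the protein C receptor, and plasmin, made from plasminogen by the activators tPA and uPA, dissolves the clot. Liver is the main source of most of these plasma proteins, whereas factor VIII and von Willebrand factor are known as endothelial products.

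The 6 libraries held 5638 to 8469 barcodes and 22453658 to 40307564 UMIs each. After the study's own limits on genes and mitochondrial reads, 5323 to 7846 nuclei per mouse were kept, with a median of 1623 to 2805 UMIs. Between 7 and 21 barcodes were shared by any 2 libraries, and none of them had the same profile in both. Clusters of nuclei were named from fixed marker genes with none of the 32 genes among those clustered, which gave 1323 to 2968 hepatocyte, 425 to 1609 endothelial, 368 to 1407 myeloid, 57 to 1097 fibroblast and 105 to 611 lymphocyte nuclei per mouse. The hepatocyte nuclei of the 3 groups lay in different clusters. Those of the Ctrl mice were in clusters 1 and 13, those of the Pre-T mice in cluster 2, those of Post-T 1 in cluster 5 and those of Post-T 2 in clusters 7 and 15, so a difference between groups is also a difference between clusters. An unnamed shallow cluster (median 1157 UMIs, led by Nr1i3, Cyp2a5 and Cyp2e1) held 1788 and 1750 nuclei of the Ctrl mice and at most 16 of any other mouse. A cluster with both hepatocyte and fibroblast markers (median 798 UMIs) had 2570 of its 2678 nuclei in Pre-T 2. Neither was counted as hepatocytes, whereas the shallow cluster 7 (median 898 UMIs), with 1774 nuclei of Post-T 2, was. The median UMIs of hepatocyte nuclei were 5083 and 4567 in the Ctrl mice, 5035 and 5157 in the Pre-T mice and 1957 and 1561 in the Post-T mice. A contrast of Post-T with another group is therefore also a contrast of depth in hepatocytes. Most sinusoidal endothelial nuclei were in cluster 4 in the Ctrl and Pre-T mice and in cluster 6 in the Post-T mice. A shallow endothelial cluster, 22 (median 776 UMIs), held 360 of the 742 endothelial nuclei of Post-T 1 and at most 4 of any other mouse. It was put in neither the sinusoidal nor the vascular part, so the values of both parts leave it out.

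Hepatocyte RNA was present in every class. The 10 hepatocyte markers, all with UMIs, summed to 256 and 233 in the hepatocyte nuclei of the Ctrl mice, 135 and 180 of the Pre-T mice and 132 and 210 of the Post-T mice. In lymphocyte nuclei, which should lack them, the same sums were 203 and 128, 69.9 and 222, and 86.0 and 240, and the median ratio of hepatocytes to lymphocytes over the 6 mice was only 1.39. A gene's level in lymphocytes is therefore given as the background of free RNA, and a level in another class is set beside it. Plaur and F2r are exceptions, and their lymphocyte level is not taken as background. In the Ctrl mice lymphocytes held 33.7% and 40.4% of Plaur UMIs and 3.77% and 7.56% of F2r UMIs, beside 2.94% and 3.42% of all UMIs. In Pre-T 2 the Plaur share was 3.1% beside 3.7%. In hepatocyte nuclei the 14 macrophage markers summed to 0.960 and 1.03 in the Ctrl mice and 1.77 to 4.01 in the other 4 mice, and the 8 T cell markers to 0.0742 and 0.151 against 1.03 to 1.49. The part of these sums in the results below was not tested.

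Of the 32 genes, 19 had their highest median level in hepatocytes, 5 in endothelial cells (F8, Vwf, Tfpi, Pros1 and Procr), 3 in monocytes (F10, Thbd and Plaur), 2 in macrophages (F13a1 and Plau), 2 in fibroblasts (F3 and Plat) and 1 in lymphocytes (F2r), among the 6 classes present in all mice. In 12 of the 19 the level in hepatocytes was above that in lymphocytes in all 6 mice, and in 10 of them the ratio was above that of the hepatocyte markers in all 6. By the share of nuclei with a UMI, 21 genes were highest in hepatocytes, and 18 were after every nucleus was thinned to 500 UMIs, which each kept nucleus held. Classes come from clustering, so these are descriptions without a test.

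**Figure D1:**
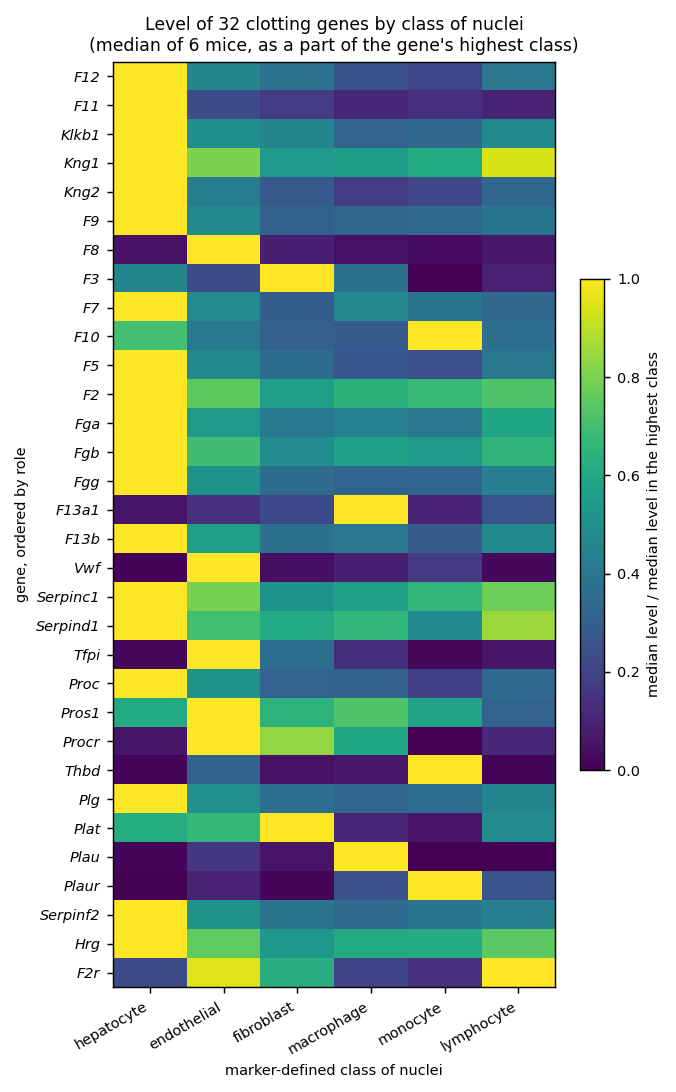
Median level over the 6 mice of each of the 32 genes (rows, by role) in 6 marker-defined classes of nuclei (columns), as a part of that gene's highest class (colour, 0 to 1). Most of the 19 genes highest in hepatocytes keep intermediate values in the other classes, whereas F8, Vwf, Tfpi and Thbd are near 0 in hepatocytes.

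Each contrast between groups was tested on UMIs summed per mouse with edgeR's quasi-likelihood test over all genes of the class, and a gene was called at a Benjamini-Hochberg adjusted p under 0.05. In hepatocytes 0 members were called in Pre-T vs Ctrl, where 0.135% of all genes were called, 2 in Post-T vs Ctrl (4.67% of all genes) and 1 in Post-T vs Pre-T (2.67%). At an unadjusted p under 0.05 there were 13, 10 and 5 members, beside 3088, 5046 and 4534 of the 21542 genes tested. DESeq2 called 7, 8 and 3 members (4.61%, 11.9% and 10.2% of all genes). The median log2 fold change of the members in hepatocytes was -0.51 in Pre-T vs Ctrl, with 23 of 32 estimates below 0, beside 0.02 for all genes. It was 0.20 in Post-T vs Ctrl (all genes 0) and 0.50 in Post-T vs Pre-T (all genes -0.05). The contrasts share mice, so their counts are not independent of each other.

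In endothelial nuclei 1, 4 and 1 members were called in Pre-T vs Ctrl, Post-T vs Ctrl and Post-T vs Pre-T, with 0.137%, 6.17% and 1.88% of all genes called. DESeq2 called 3, 6 and 3 there (1.98%, 7.6% and 4.4% of all genes). Myeloid nuclei had 2, 1 and 0 calls (2.52%, 2.81% and 0.204% of all genes). There 9, 10 and 6 members had an unadjusted p under 0.05, beside 2816, 3085 and 2279 of the 18638 genes tested. DESeq2 called 3, 1 and 0 in myeloid nuclei (3.13%, 3.65% and 0.928% of all genes). Fibroblasts had 7, 1 and 0 calls (3.64%, 3.07% and 0.0579%). In them 18, 14 and 5 members had an unadjusted p under 0.05, beside 3112, 2684 and 1915 of the 18999 genes tested. DESeq2 called 4, 2 and 0 in fibroblasts (2.43%, 3.13% and 0.495% of all genes). When each nucleus was named on its own, 0 members were called in fibroblasts in Pre-T vs Ctrl. The share of all genes called in that setting is not given, so this count is not read as a result about the members. In lymphocytes, fitted in the same way after the free RNA had been seen, 4, 3 and 2 of the 31 members tested were called (3.92%, 1.98% and 1.32%). In all kept nuclei pooled, 0, 1 and 0 members were called (0%, 2.22% and 0%). At an unadjusted p under 0.05 there were 12, 10 and 10, beside 4291, 5667 and 5315 of the 21790 genes tested. DESeq2 called 9, 8 and 3 in pooled nuclei (9.72%, 14.8% and 13.1% of all genes). In such pooled sums, fewer cells of a type and less RNA per cell cannot be told apart. In tests of whether the effect of a group differed between hepatocytes and another class of the same mice, 0, 6 and 6 members were called against endothelial nuclei (1.68%, 7.51% and 4.78% of all genes), 2, 3 and 5 against myeloid nuclei (3.99%, 5.16% and 2.42%) and 1, 4 and 3 against fibroblasts (3.33%, 6.72% and 3.81%).

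**Figure D2:**
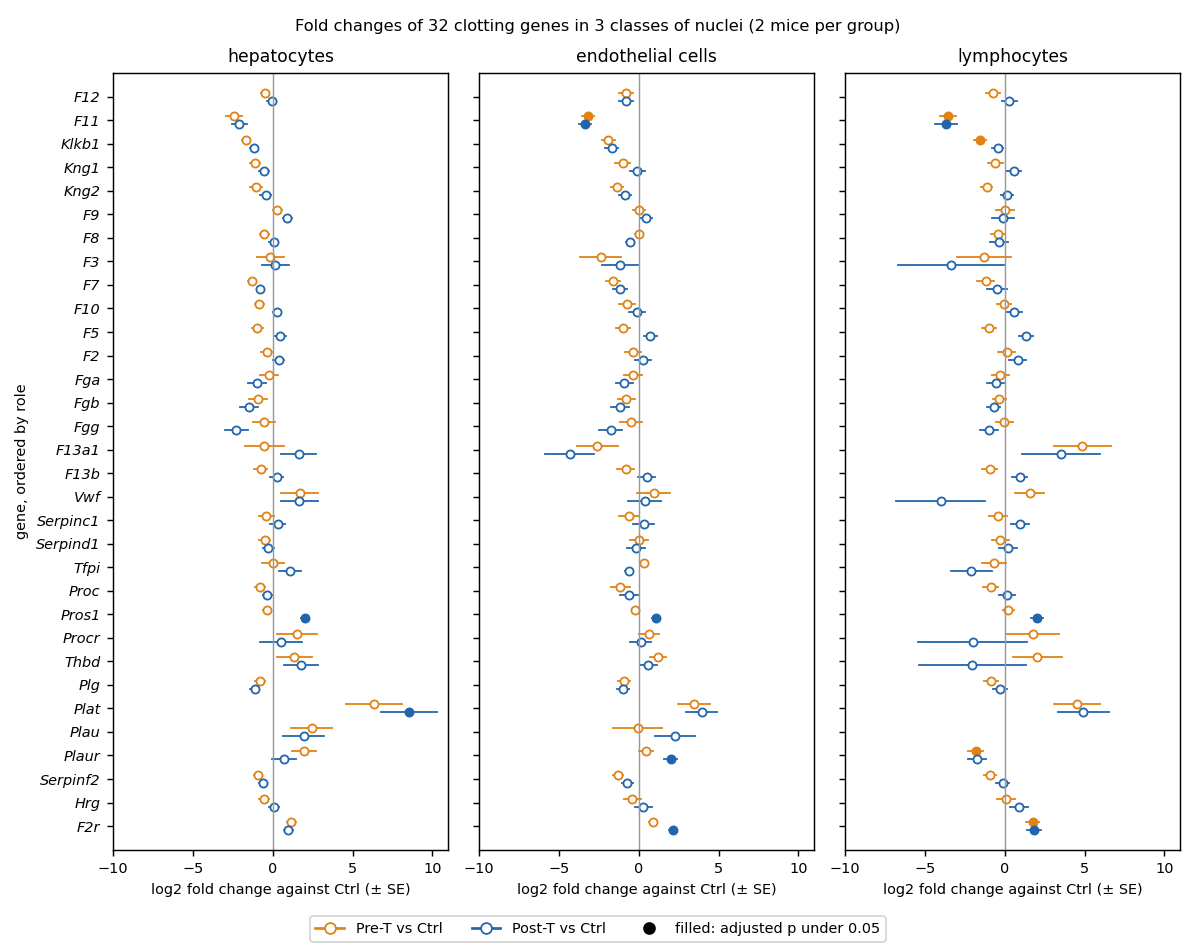
Log2 fold change with its SE against the Ctrl mice for each of the 32 genes in hepatocyte, endothelial and lymphocyte nuclei, for Pre-T (orange) and Post-T (blue), with 2 mice per group; filled points have an edgeR adjusted p under 0.05. Pros1 lies to the right of 0 in Post-T in all 3 classes, and F11 lies to the left of 0 in both Western diet groups in all 3.

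Both genes called in hepatocytes in Post-T vs Ctrl rose, Pros1 and Plat. Pros1 is protein S, an anticoagulant, the cofactor of activated protein C and a ligand of the TAM receptors, which take part in the uptake of dying cells (ENSMUSG00000022912, chr16:62854307-62929346, on the plus strand of mm10). Its level in hepatocyte nuclei was 0.934 and 0.910 in the Ctrl mice, 0.842 and 0.929 in the Pre-T mice and 4.26 and 3.04 in the Post-T mice. Both Post-T mice lay above all 4 others, and the Ctrl and Pre-T mice overlapped. Pros1 rose in Post-T against Ctrl (log2 fold change 2.00 ± 0.24 (SE), edgeR adjusted p = 0.0124) and against Pre-T (log2 fold change 2.37 ± 0.24 (SE), edgeR adjusted p = 0.0187), while Pre-T vs Ctrl gave log2 fold change -0.37 ± 0.23 (SE), edgeR adjusted p = 0.489. The mean level was 0.922 ± 0.0174 for the Ctrl mice, 0.885 ± 0.0619 for the Pre-T mice and 3.65 ± 0.862 for the Post-T mice (mean ± SD, n = 2 mice each).

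Pros1 was the 1 member called in the pooled nuclei as well, in Post-T vs Ctrl (log2 fold change 1.88 ± 0.20 (SE), edgeR adjusted p = 0.027). Endothelial nuclei held 1.17 and 1.64 in the Ctrl mice, 1.42 and 1.34 in the Pre-T mice and 2.74 and 2.53 in the Post-T mice, and here too both Post-T mice were above the other 4. The rise in endothelial cells passed the test against Ctrl (log2 fold change 1.06 ± 0.22 (SE), edgeR adjusted p = 0.0334) and against Pre-T (log2 fold change 1.27 ± 0.22 (SE), edgeR adjusted p = 0.0414). In lymphocyte nuclei the level was lower in each mouse, at 0.438 and 0.346 in the Ctrl mice, 0.438 and 0.540 in the Pre-T mice and 1.81 and 1.18 in the Post-T mice, and it rose in Post-T as well (log2 fold change 2.02 ± 0.35 (SE), edgeR adjusted p = 0.00541). Against Pre-T it also rose there (log2 fold change 1.79 ± 0.34 (SE), edgeR adjusted p = 0.0144). Hepatocyte nuclei thus held more than lymphocyte nuclei in all 6 mice, in Post-T 1 4.26 against 1.81. The hepatocyte call was lost without Ctrl 1, Ctrl 2, Pre-T 1 or Pre-T 2, where the log2 fold change against Ctrl was 1.93 to 2.07, and the endothelial call against Ctrl was lost without any 1 of the 6 mice (0.89 to 1.26). The hepatocyte call against Pre-T was lost without the same mice (2.27 to 2.47), when each nucleus was named on its own (2.18) and with the deep unnamed cluster described below added (2.12), the endothelial call against Pre-T without any 1 mouse (1.19 to 1.33), and the pooled call without Ctrl 1, Ctrl 2, Pre-T 1 or Pre-T 2 (1.84 to 1.89). With a group cut to 1 mouse, that mouse is assumed to vary like the others.

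The promoter windows of Pros1, F11 and the 3 fibrinogen genes are shown, Pros1 because it was called in hepatocytes and the others, chosen after their values were seen, because F11 was lower in the Western diet mice in each class tested and the 3 fibrinogen chains were all highest in Ctrl 1 and lowest in Post-T 2. Windows run from 250 bases before to 50 bases after the RefSeq start site in GRCm38.p6 (the build of mm10), and 25 of the 32 genes matched a window. Capitals mark matches, on either strand, to CTGGGAA, the core of the IL-6 response element of acute-phase genes, or to TTNNGNAA, the core bound by C/EBP factors. These 2 motifs occur in 11.14% and 40.68% of the 32851 windows of all genes, and positions are counted from 0 at the first transcribed base. Pros1 (chr16:62854057-62854356, plus strand) held 1 C/EBP match, at -223 to -216.
Pros1: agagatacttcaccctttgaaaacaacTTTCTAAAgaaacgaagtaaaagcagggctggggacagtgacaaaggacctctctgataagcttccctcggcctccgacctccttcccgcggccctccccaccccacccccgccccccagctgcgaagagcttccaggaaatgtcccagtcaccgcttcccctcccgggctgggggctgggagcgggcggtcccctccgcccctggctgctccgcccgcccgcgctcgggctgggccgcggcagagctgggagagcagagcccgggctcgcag

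Among the other anticoagulants, Serpinc1, antithrombin, was highest in hepatocytes at 6.57 and 4.62 in the Ctrl mice, 4.85 and 5.64 in the Pre-T mice and 4.22 and 8.89 in the Post-T mice, and no group stood apart. Lymphocytes held 1.61 to 10.3, below hepatocytes in 5 of 6 mice. Proc, protein C, the protease that inactivates factors V and VIII, had 4.18 and 4.67 in the Ctrl mice, 3.19 and 3.03 in the Pre-T mice and 2.79 and 3.93 in the Post-T mice in hepatocytes. Its level was above that in lymphocytes (0.388 to 2.13) in all 6 mice and did not pass the test in any contrast there (edgeR adjusted p = 0.302, 0.543 and 0.409). Serpind1, heparin cofactor II, a second inhibitor of thrombin, stood at 0.736 and 0.691 in the Ctrl mice, 0.554 and 0.700 in the Pre-T mice and 0.433 and 0.685 in the Post-T mice, with 0.203 to 0.816 in lymphocytes, so no source could be read from its levels.

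The membrane and endothelial anticoagulants had other sources. Tfpi, the inhibitor of tissue factor and factor VIIa, was at 0.985 and 1.06 in the Ctrl mice, 1.55 and 1.38 in the Pre-T mice and 0.532 and 0.650 in the Post-T mice in endothelial nuclei, against at most 0.0959 in lymphocytes. The Post-T mice were lowest and the Pre-T mice highest, and the groups did not overlap. The test was not passed (Post-T vs Pre-T log2 fold change -0.94 ± 0.24 (SE), edgeR adjusted p = 0.0932). Thbd, thrombomodulin, which turns thrombin from a clotting into an anticoagulant enzyme, was highest in monocytes, at 0.269 and 0.594 in the Ctrl mice, 0.459 and 0.447 in the Pre-T mice and 0.210 and 0.200 in the Post-T mice. These values rest on 1 and 3 UMIs in the Ctrl mice, 26 and 21 in the Pre-T mice and 6 and 3 in the Post-T mice. In endothelial nuclei Thbd was higher in the vascular part (0.120 to 0.778 in the 5 mice with 20 or more such nuclei) than in the sinusoidal part (0.0255 to 0.119). Procr, the endothelial protein C receptor, was scarce, at 0.0290 and 0.0442 in the Ctrl mice, 0.0724 and 0.0607 in the Pre-T mice and 0.0636 and 0.0194 in the Post-T mice in endothelial nuclei, and 0.0707 to 0.215 in the vascular part. Fibroblasts held 0.00958 to 0.0854 and macrophages 0.0135 to 0.112, so the endothelial source was not distinct.

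Among the contact and intrinsic factors, the widest difference between Ctrl and the Western diet groups was in F11, the protease that activates factor IX (ENSMUSG00000031645, chr8:45241174-45262031, minus strand). In hepatocytes F11 had 4.45 and 2.83 in the Ctrl mice, 0.959 and 0.728 in the Pre-T mice and 1.32 and 0.438 in the Post-T mice. Both Ctrl mice were above all 4 Western diet mice. By edgeR this did not pass in hepatocytes, in Pre-T vs Ctrl (log2 fold change -2.44 ± 0.49 (SE), edgeR adjusted p = 0.116) or Post-T vs Ctrl (log2 fold change -2.10 ± 0.49 (SE), edgeR adjusted p = 0.0621), whereas DESeq2 called both. In endothelial nuclei F11 fell in both, with levels of 2.42 and 1.54 in the Ctrl mice, 0.208 and 0.278 in the Pre-T mice and 0.246 and 0.125 in the Post-T mice (Pre-T vs Ctrl log2 fold change -3.19 ± 0.39 (SE), edgeR adjusted p = 0.0491; Post-T vs Ctrl log2 fold change -3.36 ± 0.39 (SE), edgeR adjusted p = 0.00703).

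The same direction was seen for F11 in each class tested. In myeloid nuclei its level was 1.48 and 0.684 in the Ctrl mice, 0.0391 and 0.0877 in the Pre-T mice and 0.166 and 0.0640 in the Post-T mice, and it fell in Pre-T (log2 fold change -4.10 ± 0.57 (SE), edgeR adjusted p = 0.00797) and in Post-T (log2 fold change -2.98 ± 0.56 (SE), edgeR adjusted p = 0.0217). Fibroblasts held 1.75 and 1.09 in the Ctrl mice, 0.183 and 0.112 in the Pre-T mice and 0.165 and 0.215 in the Post-T mice, with log2 fold changes of -3.50 and -3.10 (edgeR adjusted p = 0.00112 and 0.00462). In lymphocytes, which give the background of free RNA, the level was 1.38 and 0.764 in the Ctrl mice, 0.0625 and 0.126 in the Pre-T mice and 0 and 0.100 in the Post-T mice, and it fell by 3.55 and 3.69 on the log2 scale (edgeR adjusted p = 0.00127 and 0.00827). Hepatocytes were above lymphocytes in each of the 6 mice, and the falls outside hepatocytes are not independent of the level of F11 in the free RNA of the same mice. Leaving out any 1 mouse ended the endothelial call in Pre-T vs Ctrl (-3.54 to -2.75), and in myeloid nuclei both calls were lost without Ctrl 1 (-3.32 and -2.21) or Ctrl 2 (-4.58 and -3.47). The endothelial call in Post-T vs Ctrl was lost without Pre-T 1, Pre-T 2 or Post-T 2 (-3.36, -3.36 and -2.99), and the fibroblast call in Post-T vs Ctrl without Ctrl 1 or Post-T 1 (-2.65 and -2.75).

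Klkb1, plasma prekallikrein, lies next to F11, 4.657 kb away on chromosome 8, and both are read from the minus strand. It had 4.04 and 4.47 in the Ctrl mice, 1.68 and 1.60 in the Pre-T mice and 1.74 and 1.95 in the Post-T mice in hepatocytes, again with both Ctrl mice above the other 4. In Post-T vs Ctrl this was just short of the threshold (log2 fold change -1.16 ± 0.25 (SE), edgeR adjusted p = 0.0522), and DESeq2 called it in both contrasts against Ctrl. It fell in fibroblasts in Pre-T (log2 fold change -2.29 ± 0.39 (SE), edgeR adjusted p = 0.00878), where its level was 1.81 and 1.77 in the Ctrl mice, 0.465 and 0.390 in the Pre-T mice and 0.364 and 1.22 in the Post-T mice, and in lymphocytes of the same mice (log2 fold change -1.55 ± 0.35 (SE), edgeR adjusted p = 0.0203). The lymphocyte level was 1.34 and 1.54 in the Ctrl mice, 0.391 and 0.640 in the Pre-T mice and 0.712 and 1.05 in the Post-T mice. The fibroblast call was lost without Ctrl 1 (-2.22). Reads of Klkb1 may be shared with Gm45753, which overlaps it on the same strand. The F11 window (chr8:45261982-45262281, minus strand) held 1 C/EBP match, at -17 to -10.
F11: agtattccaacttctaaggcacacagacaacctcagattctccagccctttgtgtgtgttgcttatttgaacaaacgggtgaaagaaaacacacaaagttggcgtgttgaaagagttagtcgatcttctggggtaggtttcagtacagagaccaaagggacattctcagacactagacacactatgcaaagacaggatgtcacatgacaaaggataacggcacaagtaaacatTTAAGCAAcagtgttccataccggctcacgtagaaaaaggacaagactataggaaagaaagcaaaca

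F12, the factor that starts contact activation, had 2.18 and 2.31 in the Ctrl mice, 1.81 and 2.16 in the Pre-T mice and 2.73 and 1.55 in the Post-T mice in hepatocytes, with 1 Post-T mouse above and 1 below all others. Kng1, a kininogen, the carrier of prekallikrein and source of bradykinin, had 10.8 and 8.52 in the Ctrl mice, 5.03 and 6.25 in the Pre-T mice and 8.22 and 5.08 in the Post-T mice, and lymphocytes held 1.86 to 7.76, below hepatocytes in 5 of 6 mice. Its paralog Kng2, 28.382 kb away on chromosome 16, had 5.19 and 6.01 in the Ctrl mice, 3.27 and 3.41 in the Pre-T mice and 5.90 and 2.39 in the Post-T mice, above lymphocytes in all 6 mice. Counting may split reads between these 2 closely related genes, and Kng2 overlaps Gm6493 on its own strand, so both values are uncertain. Kng2 fell in Pre-T in myeloid nuclei (log2 fold change -1.96 ± 0.41 (SE), edgeR adjusted p = 0.0372), where the levels were 2.01 and 1.52 in the Ctrl mice, 0.274 and 0.644 in the Pre-T mice and 0.841 and 0.714 in the Post-T mice. It also fell in fibroblasts (log2 fold change -1.71 ± 0.26 (SE), edgeR adjusted p = 0.00487), with 2.02 and 2.07 in the Ctrl mice, 0.648 and 0.796 in the Pre-T mice and 1.16 and 1.29 in the Post-T mice. In both classes the Ctrl mice were above all 4 Western diet mice. The median ratio of the Kng2 level to that in lymphocytes over the 6 mice was 0.595 in macrophages and 0.615 in monocytes, so the myeloid level was not above the background. Beside these falls the 10 hepatocyte markers summed to 190 and 141 in the myeloid nuclei of the Ctrl mice and 47.8 and 152 in those of the Pre-T mice. In fibroblasts they summed to 173 and 123 in the Ctrl mice and 54.9 and 123 in the Pre-T mice, and their part in these falls was not tested. The myeloid call was lost without Ctrl 1, Ctrl 2 or Pre-T 1 (-1.63, -2.19 and -1.44) and the fibroblast call without Ctrl 1 or Pre-T 1 (-1.68 and -1.51).

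F9, the protease that activates factor X, had 0.503 and 0.652 in the Ctrl mice, 0.890 and 0.861 in the Pre-T mice and 0.933 and 1.16 in the Post-T mice in hepatocytes, where both Ctrl mice were lowest. It did not pass in Post-T vs Ctrl by edgeR (log2 fold change 0.92 ± 0.27 (SE), edgeR adjusted p = 0.106), though DESeq2 called it. F8, the cofactor of factor IX, was an endothelial gene here, at 7.14 and 10.5 in the Ctrl mice, 10.7 and 9.46 in the Pre-T mice and 4.93 and 5.62 in the Post-T mice, against 0.188 to 0.653 in lymphocytes and 0.303 to 0.432 in hepatocytes. Both Post-T mice were lowest, and the difference from Ctrl did not pass (log2 fold change -0.58 ± 0.25 (SE), edgeR adjusted p = 0.24). It was present in both parts of the endothelium, with 7.56 and 9.69 in the Ctrl mice, 10.1 and 9.43 in the Pre-T mice and 5.33 and 5.60 in the Post-T mice in the sinusoidal part and 5.32 to 15.3 in the vascular part of 5 mice. A same-strand neighbour, Gm8522, overlaps F8.

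**Figure D3:**
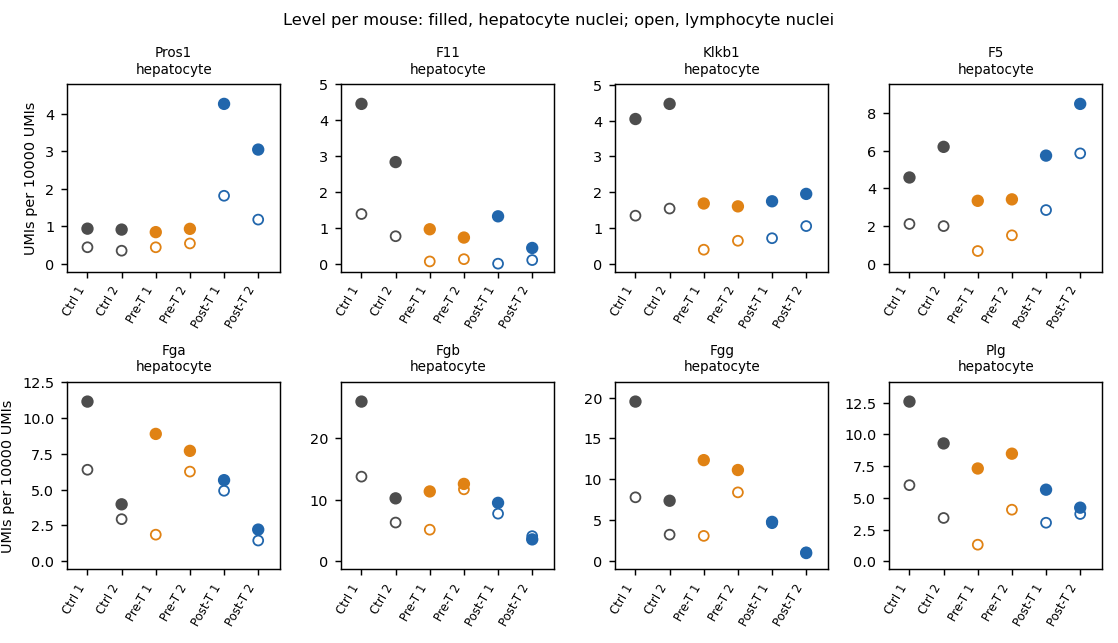
Level in UMIs per 10000 UMIs of 8 genes in hepatocyte nuclei (filled) and lymphocyte nuclei (open) of each mouse (grey Ctrl, orange Pre-T, blue Post-T). Pros1 is highest in both Post-T mice and F11 and Klkb1 in both Ctrl mice, and for Fgg the open and filled points of Post-T 1 and Post-T 2 nearly coincide.

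For each of the 3 fibrinogen chains the Ctrl mice differed from each other by more than the Ctrl mean did from the Pre-T mean, and none was called in hepatocytes. Fga, the alpha chain, had 11.1 and 3.97 in the Ctrl mice, 8.88 and 7.70 in the Pre-T mice and 5.66 and 2.21 in the Post-T mice in hepatocytes. Fgb, the beta chain, had 26.0 and 10.3 in the Ctrl mice, 11.4 and 12.6 in the Pre-T mice and 9.52 and 3.58 in the Post-T mice, and Fgg, the gamma chain, 19.5 and 7.40 in the Ctrl mice, 12.4 and 11.1 in the Pre-T mice and 4.82 and 1.02 in the Post-T mice. In all 3 Ctrl 1 was the highest mouse and Post-T 2 the lowest. Ctrl 2 lay below both Pre-T mice for each chain, so Ctrl and Pre-T overlapped. Fgg was lower in both Post-T mice than in all others, without passing by edgeR (Post-T vs Ctrl log2 fold change -2.28 ± 0.73 (SE), edgeR adjusted p = 0.127), while DESeq2 called it. For Fga and Fgb the edgeR adjusted p in this contrast was 0.341 and 0.17, and without Ctrl 1 the Fga estimate turned from -0.99 to 0.02.

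The lymphocyte level was 6.38 and 2.94 in the Ctrl mice, 1.86 and 6.25 in the Pre-T mice and 4.92 and 1.45 in the Post-T mice for Fga, 13.8 and 6.32 in the Ctrl mice, 5.16 and 11.7 in the Pre-T mice and 7.76 and 4.10 in the Post-T mice for Fgb and 7.82 and 3.26 in the Ctrl mice, 3.11 and 8.42 in the Pre-T mice and 4.66 and 1.10 in the Post-T mice for Fgg. It came close to the hepatocyte level in Pre-T 2 and in the Post-T mice, and for Fgb and Fgg in Post-T 2 it was above it. The 3 genes lie together on chromosome 3 (83007724 to 83049863), Fgb on the minus and the other 2 on the plus strand. Fgb held the IL-6 response core at -91 to -85 and 3 C/EBP matches, Fgg the IL-6 core at -13 to -7, and Fga 1 C/EBP match at -135 to -128. The windows are chr3:83025903-83026202 and chr3:83007474-83007773 on the plus strand and chr3:83049814-83050113 on the minus strand.
Fga: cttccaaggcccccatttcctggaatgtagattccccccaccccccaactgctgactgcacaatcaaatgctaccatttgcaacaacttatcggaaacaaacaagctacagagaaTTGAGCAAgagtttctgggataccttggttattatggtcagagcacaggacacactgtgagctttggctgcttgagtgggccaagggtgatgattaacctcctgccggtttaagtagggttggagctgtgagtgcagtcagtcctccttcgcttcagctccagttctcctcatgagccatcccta
Fgb: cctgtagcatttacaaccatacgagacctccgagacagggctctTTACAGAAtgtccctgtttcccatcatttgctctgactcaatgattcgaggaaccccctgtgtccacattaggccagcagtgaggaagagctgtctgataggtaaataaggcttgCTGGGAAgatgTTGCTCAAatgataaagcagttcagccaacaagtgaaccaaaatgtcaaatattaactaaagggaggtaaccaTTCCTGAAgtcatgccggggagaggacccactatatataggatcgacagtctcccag
Fgg: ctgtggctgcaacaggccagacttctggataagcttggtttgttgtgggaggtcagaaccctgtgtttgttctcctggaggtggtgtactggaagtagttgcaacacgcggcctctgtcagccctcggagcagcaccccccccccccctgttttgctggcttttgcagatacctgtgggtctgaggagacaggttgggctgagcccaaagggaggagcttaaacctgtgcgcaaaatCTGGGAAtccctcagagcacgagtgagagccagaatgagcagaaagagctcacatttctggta

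The 2 subunits of factor XIII, which cross-links fibrin, came from different cells. F13b, the carrier subunit, was highest in hepatocytes, at 1.05 and 1.18 in the Ctrl mice, 0.863 and 0.784 in the Pre-T mice and 0.827 and 1.69 in the Post-T mice, above lymphocytes in all 6 mice and with no group apart. F13a1, the catalytic subunit, was near 0 in hepatocytes (0.00221 to 0.0334) and low in macrophages (0 to 0.210). It was found in a myeloid cluster with markers of both monocytes and dendritic cells, at 8.29 and 3.24 in the Ctrl mice, 8.46 and 3.44 in the Pre-T mice and 13.3 in Post-T 1, with too few such nuclei (10) in Post-T 2. Over all myeloid nuclei the level was 1.41 and 0.479 in the Ctrl mice, 1.17 and 0.366 in the Pre-T mice and 0.900 and 0.160 in the Post-T mice, with overlapping groups.

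Of the tissue factor and common pathway, F3, tissue factor, the trigger of clotting after injury, was scarce in all classes. Fibroblasts held 0.151 and 0.0862 in the Ctrl mice, 0.0734 and 0.0587 in the Pre-T mice and 0.0331 and 0 in the Post-T mice, lowest in the Post-T mice. Mesothelial nuclei had more, at 0.727 and 0.500 in the Ctrl mice and 0.700 in Pre-T 1, with under 20 such nuclei in the other 3. Cholangiocytes had 0.0888 to 0.230 in 5 mice. No contrast passed for F3 in hepatocytes (edgeR adjusted p = 0.95, 0.943 and 0.869).

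F7, the protease that tissue factor binds, had 0.723 and 1.04 in the Ctrl mice, 0.417 and 0.476 in the Pre-T mice and 0.570 and 0.443 in the Post-T mice in hepatocytes, above lymphocytes in all 6 mice. Both Ctrl mice were highest, and the contrasts in hepatocytes did not pass by edgeR (Pre-T vs Ctrl log2 fold change -1.28 ± 0.24 (SE), edgeR adjusted p = 0.101). It fell in fibroblasts in Pre-T (log2 fold change -1.79 ± 0.37 (SE), edgeR adjusted p = 0.0222), with 0.346 and 0.415 in the Ctrl mice, 0.0856 and 0.166 in the Pre-T mice and 0.0827 and 0.143 in the Post-T mice, beside the lower sum of hepatocyte markers in fibroblasts of Pre-T 1 given above. That call was lost without Ctrl 1, Ctrl 2 or Pre-T 1 (-1.86, -1.68 and -1.35). F7 lies 1.498 kb from F10 on chromosome 8.

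F10, factor X, was higher in monocytes than in hepatocytes, in 5 of 6 mice. Its level in monocytes was 2.96 and 0.396 in the Ctrl mice, 2.03 and 2.64 in the Pre-T mice and 3.08 and 3.80 in the Post-T mice. In hepatocytes it was 2.20 and 1.85 in the Ctrl mice, 1.15 and 1.64 in the Pre-T mice and 2.73 and 2.08 in the Post-T mice. Ctrl 2, with 2 F10 UMIs in 37 monocyte nuclei, was the exception. F5, the cofactor of factor Xa, had 4.58 and 6.20 in the Ctrl mice, 3.34 and 3.41 in the Pre-T mice and 5.74 and 8.48 in the Post-T mice in hepatocytes. Both Pre-T mice were lowest and Post-T 2 highest, and Post-T vs Pre-T did not pass by edgeR (log2 fold change 1.45 ± 0.34 (SE), edgeR adjusted p = 0.076), while DESeq2 called it. In lymphocytes F5 rose in that contrast (log2 fold change 2.30 ± 0.44 (SE), edgeR adjusted p = 0.014), with a level of 2.11 and 1.99 in the Ctrl mice, 0.672 and 1.51 in the Pre-T mice and 2.85 and 5.86 in the Post-T mice. F5 overlaps Gm16588 on its own strand. F2, prothrombin, had 2.86 and 2.41 in the Ctrl mice, 2.08 and 2.94 in the Pre-T mice and 2.85 and 3.76 in the Post-T mice, with 0.922 to 4.10 in lymphocytes, and no contrast in hepatocytes passed (edgeR adjusted p = 0.616, 0.522 and 0.252).

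Vwf, von Willebrand factor, which tethers platelets and carries factor VIII, marked the vascular part of the endothelium. There its level was 5.67 and 6.68 in the Ctrl mice, 10.2 and 10.7 in the Pre-T mice and 18.3 in Post-T 1, and only 12 such nuclei were found in Post-T 2. Both Pre-T mice and Post-T 1 lay above both Ctrl mice. The sinusoidal part held 0.102 and 0.0467 in the Ctrl mice, 0.401 and 0.435 in the Pre-T mice and 0.891 and 0.0531 in the Post-T mice, with the same order except that Post-T 2 was at the Ctrl level. Over all endothelial nuclei the level was 1.15 and 1.03 in the Ctrl mice, 2.88 and 1.98 in the Pre-T mice and 2.75 and 0.0944 in the Post-T mice, and it did not pass in any contrast (edgeR adjusted p = 0.732, 0.865 and 0.805). The number of vascular nuclei was 189 and 158 in the Ctrl mice, 84 and 107 in the Pre-T mice and 57 and 12 in the Post-T mice, and was not separated from the level per nucleus in that test.

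**Figure D4:**
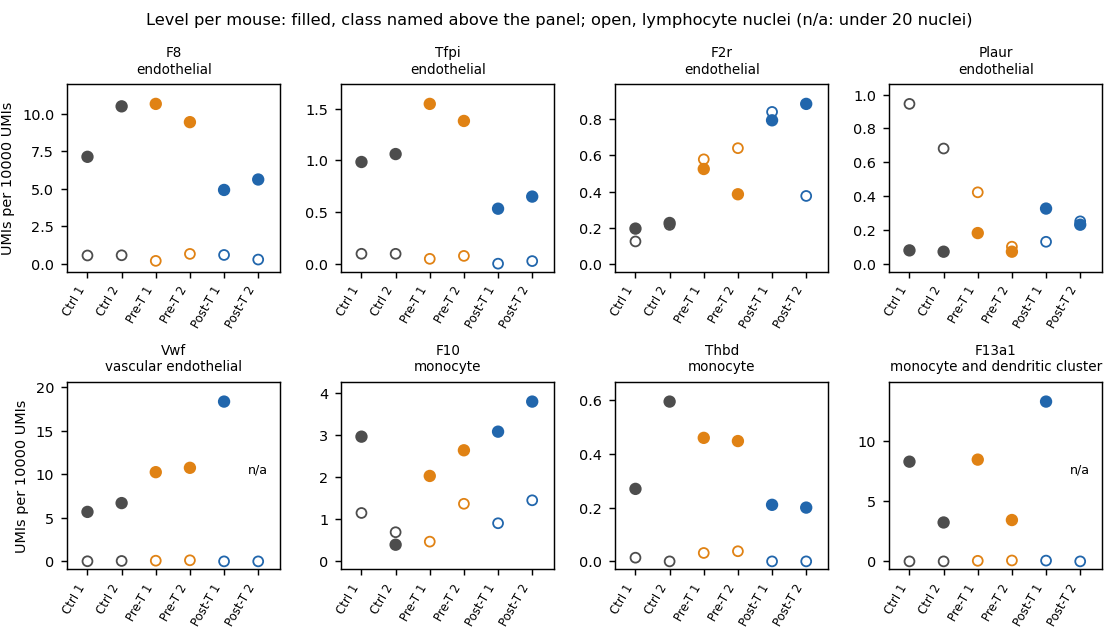
Level in UMIs per 10000 UMIs of 8 genes in the class named above each panel (filled) and in lymphocyte nuclei (open) of each mouse (grey Ctrl, orange Pre-T, blue Post-T); n/a marks a mouse with under 20 nuclei of the class. F8 and Tfpi are lowest in both Post-T mice, and F2r is highest in both Post-T mice in endothelial nuclei but has open points above the filled ones in Pre-T 1, Pre-T 2 and Post-T 1.

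Fibrinolysis begins with plasminogen. Plg had 12.6 and 9.28 in the Ctrl mice, 7.31 and 8.47 in the Pre-T mice and 5.64 and 4.23 in the Post-T mice in hepatocytes, above lymphocytes (1.31 to 6.00) in all 6 mice. Both Post-T mice were lowest, without passing by edgeR (Post-T vs Ctrl log2 fold change -1.14 ± 0.30 (SE), edgeR adjusted p = 0.0845), while DESeq2 called it. Serpinf2, alpha-2-antiplasmin, the plasmin inhibitor, had 2.76 and 2.30 in the Ctrl mice, 1.53 and 1.81 in the Pre-T mice and 1.66 and 1.64 in the Post-T mice in hepatocytes, highest in both Ctrl mice. It fell in fibroblasts in Pre-T (log2 fold change -1.43 ± 0.35 (SE), edgeR adjusted p = 0.0482), with 1.19 and 0.993 in the Ctrl mice, 0.397 and 0.545 in the Pre-T mice and 0.314 and 0.787 in the Post-T mice. Proc fell there too (log2 fold change -1.32 ± 0.32 (SE), edgeR adjusted p = 0.0432), with 1.89 and 1.88 in the Ctrl mice, 0.795 and 0.956 in the Pre-T mice and 0.612 and 1.29 in the Post-T mice. The hepatocyte markers in the same fibroblast nuclei summed to 173 and 123 in the Ctrl mice and 54.9 and 123 in the Pre-T mice, and their part in both falls was not tested. Both genes were higher in both Ctrl mice than in all 4 Western diet mice. Both of these calls were lost without any 1 of the Ctrl or Pre-T mice (-1.70 to -1.16 for Serpinf2 and -1.48 to -1.13 for Proc). Hrg, the histidine-rich glycoprotein, which binds plasminogen and heparin, had 2.45 and 2.63 in the Ctrl mice, 2.04 and 2.21 in the Pre-T mice and 2.04 and 3.06 in the Post-T mice in hepatocytes and 0.453 to 2.90 in lymphocytes, below hepatocytes in 5 of 6 mice.

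Plat, tissue plasminogen activator (tPA), which makes plasmin on fibrin (ENSMUSG00000031538, chr8:22757727-22782844, plus strand), differed between the mice of the Pre-T group as well as between groups. Hepatocyte nuclei of the Ctrl mice held 2 and 1 Plat UMIs, those of Pre-T 1 and Pre-T 2 held 206 and 4, and those of Post-T 1 and Post-T 2 held 474 and 602. As levels these were 0.00146 and 0.00074 in the Ctrl mice, 0.239 and 0.00498 in the Pre-T mice and 0.452 and 0.427 in the Post-T mice. Both Post-T mice and Pre-T 1 were far above both Ctrl mice, and Pre-T 2 was near them. Plat rose in Post-T vs Ctrl (log2 fold change 8.55 ± 1.76 (SE), edgeR adjusted p = 0.0453). The ratio of the summed levels was 399 (95% exact Poisson interval 136 to 1936, counting error only), resting on 3 UMIs in the Ctrl mice, and the fitted fold change depends on the prior count. In Pre-T vs Ctrl it did not pass (log2 fold change 6.34 ± 1.73 (SE), edgeR adjusted p = 0.196), with a single high mouse.

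Most Plat UMIs of Pre-T 1 and Post-T 1 were elsewhere. A deep cluster that could not be named (median 8246 UMIs per nucleus; Lama3, Apcdd1, Unc5c and Nkd1 among its leading genes) had 854 nuclei in Pre-T 1, 663 in Post-T 1, 1 in Post-T 2 and 0 in the other 3 mice. Its Plat level was 8.20 in Pre-T 1 and 3.28 in Post-T 1, and it held 89.7% and 75.0% of their Plat UMIs, beside 29.5% and 26.8% of the UMIs of all genes. In Post-T 2, which had 1 such nucleus, 87.8% of Plat UMIs were in hepatocytes, beside 72.6% of the UMIs of all genes. Hepatocyte markers summed to 73.7 and 47.2 in this cluster, below the 135 and 132 of the hepatocyte nuclei of the same mice. In lymphocytes Plat had 0.0137 and 0 in the Ctrl mice and 0.453 and 0 in the Pre-T mice. In the Post-T mice it had 0.324 and 0.175 there, so it was high in the same 3 mice as in hepatocytes. The hepatocyte level was below the lymphocyte level in Ctrl 1 and Pre-T 1 and above it in Post-T 1 and Post-T 2. Ctrl 2 and Pre-T 2 had 0 in lymphocytes. The median ratio of the hepatocyte level to the lymphocyte level over the mice was 0.706. By that median the hepatocyte level of Plat was not above the background. The part of free RNA in the hepatocyte call was not tested.

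Fibroblasts held 0.0432 and 0.00319 in the Ctrl mice, 0.978 and 0.107 in the Pre-T mice and 0.546 and 0.286 in the Post-T mice, and Plat rose there in Pre-T vs Ctrl (log2 fold change 4.38 ± 0.98 (SE), edgeR adjusted p = 0.0328). The fibroblast call was lost without Ctrl 1, Ctrl 2, Pre-T 1, Post-T 1 or Post-T 2 (6.87, 3.33, 2.14, 4.38 and 4.39), and the hepatocyte call without Ctrl 1 or Ctrl 2 (9.11 and 8.12). The hepatocyte call was also lost with a minimum of 30 UMIs (8.53), at clustering resolution 2 (7.63), with the deep cluster added to the hepatocytes (9.53) and without the shallow hepatocyte cluster of Post-T 2 (8.59). In vascular endothelial nuclei Plat was 0.132 and 0.0600 in the Ctrl mice, 0.574 and 0.472 in the Pre-T mice and 0.141 in Post-T 1. There Pre-T 2 was near Pre-T 1, unlike in hepatocytes, lymphocytes and fibroblasts.

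**Figure D5:**
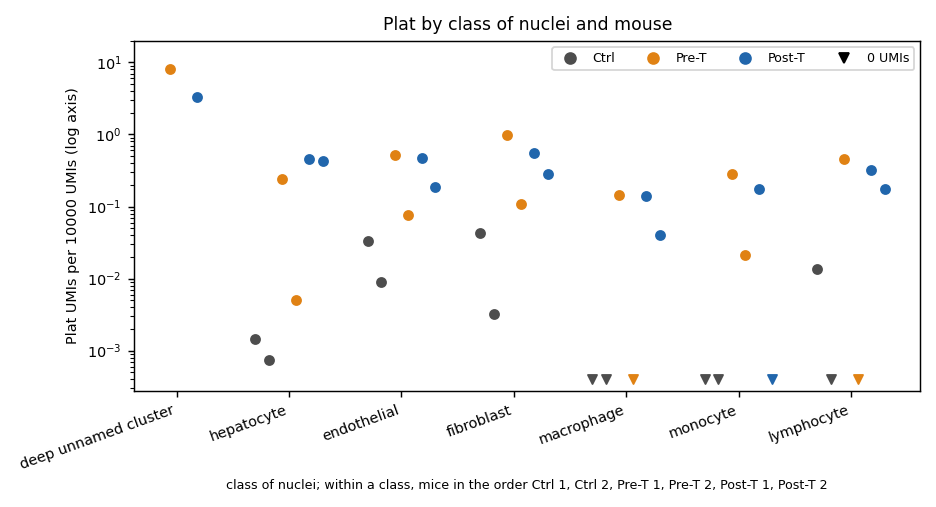
Plat level in UMIs per 10000 UMIs (log axis) in 7 classes of nuclei for each mouse (grey Ctrl, orange Pre-T, blue Post-T; triangles at the foot mark 0 UMIs). The deep unnamed cluster has the highest points, and in every other class Pre-T 1 lies above Pre-T 2.

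Plau, urokinase, the other plasminogen activator, was low and highest in macrophages, at 0.0535 and 0 in the Ctrl mice, 0.196 and 0.127 in the Pre-T mice and 0.0887 and 0.108 in the Post-T mice. Its level in all kept nuclei was 0.00241 and 0.00245 in the Ctrl mice, 0.0176 and 0.0265 in the Pre-T mice and 0.0114 and 0.0113 in the Post-T mice, and the higher values of the 4 Western diet mice did not pass (Pre-T vs Ctrl log2 fold change 2.83 ± 0.50 (SE), edgeR adjusted p = 0.0984). Plaur, the receptor that holds urokinase on the cell surface (ENSMUSG00000046223, chr7:24462484-24475968), was highest in monocytes, at 1.62 and 3.36 in the Ctrl mice, 1.64 and 0.681 in the Pre-T mice and 0.806 and 0.999 in the Post-T mice, and in the 26 neutrophil nuclei of Pre-T 1 it was 4.13. In endothelial nuclei it had 0.0786 and 0.0708 in the Ctrl mice, 0.181 and 0.0709 in the Pre-T mice and 0.326 and 0.230 in the Post-T mice, with both Post-T mice highest. It rose there in Post-T vs Ctrl (log2 fold change 2.00 ± 0.40 (SE), edgeR adjusted p = 0.0327). In lymphocytes its level was 0.945 and 0.681 in the Ctrl mice, 0.422 and 0.100 in the Pre-T mice and 0.129 and 0.250 in the Post-T mice, and it fell there in Pre-T vs Ctrl (log2 fold change -1.81 ± 0.47 (SE), edgeR adjusted p = 0.042). The endothelial call was lost without any 1 of the 6 mice (1.88 to 2.14).

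F2r, the thrombin receptor PAR1 (ENSMUSG00000048376, chr13:95601803-95618487), had 0.194 and 0.226 in the Ctrl mice, 0.525 and 0.385 in the Pre-T mice and 0.795 and 0.886 in the Post-T mice in endothelial nuclei. The levels were lowest in both Ctrl mice, between in both Pre-T mice and highest in both Post-T mice, with no overlap between groups. F2r rose in Post-T vs Ctrl (log2 fold change 2.16 ± 0.25 (SE), edgeR adjusted p = 0.00703), and Post-T vs Pre-T was just short of the threshold (log2 fold change 1.26 ± 0.25 (SE), edgeR adjusted p = 0.0536). The sinusoidal part alone gave 0.138 and 0.202 in the Ctrl mice, 0.485 and 0.357 in the Pre-T mice and 0.788 and 0.892 in the Post-T mice, in the same order of groups. In lymphocytes the level was 0.123 and 0.215 in the Ctrl mice, 0.578 and 0.640 in the Pre-T mice and 0.841 and 0.375 in the Post-T mice, and it rose there in Pre-T (log2 fold change 1.73 ± 0.40 (SE), edgeR adjusted p = 0.0225) and Post-T (log2 fold change 1.83 ± 0.46 (SE), edgeR adjusted p = 0.0489). Hepatocytes held 0.0545 to 0.157, below the endothelial level in each mouse. Without Pre-T 1, Pre-T 2 or Post-T 2 the endothelial call was lost (2.16, 2.16 and 1.94).

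The rest of the pathway was followed through 6 lists of 57 genes in hepatocytes and in pooled nuclei. In hepatocytes edgeR called 0, 3 and 2 of the 57 in Pre-T vs Ctrl, Post-T vs Ctrl and Post-T vs Pre-T, all higher, beside the same shares of all genes as above. At an unadjusted p under 0.05 there were 13, 21 and 13, beside 3088, 5046 and 4534 of the 21542 genes tested. DESeq2 called 6, 11 and 9 (4.61%, 11.9% and 10.2% of all genes). In pooled nuclei edgeR called 0, 2 and 0 of the 56 tested (0%, 2.22% and 0% of all genes). There 15, 10 and 11 had an unadjusted p under 0.05, beside 4291, 5667 and 5315 of the 21790 genes tested. DESeq2 called 9, 9 and 7 in pooled nuclei (9.72%, 14.8% and 13.1% of all genes). Of the regulators of fibrinolysis, Anxa2, a cell-surface receptor for plasminogen and tPA, had 0.0364 and 0.0155 in the Ctrl mice, 0.695 and 0.710 in the Pre-T mice and 0.807 and 0.203 in the Post-T mice in hepatocytes, and rose in Post-T vs Ctrl (log2 fold change 4.21 ± 0.68 (SE), edgeR adjusted p = 0.0258). Lymphocytes held 0.123 and 0.191 in the Ctrl mice, 0.516 and 0.766 in the Pre-T mice and 0.518 and 0.275 in the Post-T mice. That was above hepatocytes in both Ctrl mice, Pre-T 2 and Post-T 2.

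Of the 8 genes of the vitamin K cycle, processing and export, Adamts13, the protease that cleaves von Willebrand factor, fell in pooled nuclei in Post-T vs Ctrl (log2 fold change -3.87 ± 0.38 (SE), edgeR adjusted p = 0.0251), with 0.247 and 0.416 in the Ctrl mice, 0.150 and 0.206 in the Pre-T mice and 0.0265 and 0.0149 in the Post-T mice. Both Post-T mice were below the other 4. Fibroblasts held it at 2.40 and 2.995 in the Ctrl mice, 2.14 and 2.09 in the Pre-T mice and 0.844 and 1.86 in the Post-T mice, and fibroblast nuclei went from 851 and 1097 in the Ctrl mice to 214 and 57 in the Post-T mice. The 15 acute-phase genes had 1 call in hepatocytes in Post-T vs Ctrl, Lcn2 (lipocalin 2, edgeR adjusted p = 0.0374). Its level was 0 and 0.00221 in the Ctrl mice, 0.479 and 0.837 in the Pre-T mice and 1.28 and 0.0660 in the Post-T mice. In lymphocytes Lcn2 had 0 and 0 in the Ctrl mice, 0.219 and 1.53 in the Pre-T mice and 1.68 and 0.100 in the Post-T mice. Post-T vs Pre-T had 1 call in hepatocytes, Socs3, a brake on IL-6 signalling (log2 fold change 1.58 ± 0.29 (SE), edgeR adjusted p = 0.043). It had 0.0633 and 0.0730 in the Ctrl mice, 0.0592 and 0.0572 in the Pre-T mice and 0.136 and 0.137 in the Post-T mice. Lymphocyte Socs3 was 0.082 and 0.179, 0.250 and 0.151, and 0.194 and 0.150 in these groups, above hepatocytes in every mouse. Of 11 liver-enriched transcription factors, Foxa3 rose in hepatocytes in Post-T vs Pre-T (log2 fold change 1.80 ± 0.29 (SE), edgeR adjusted p = 0.0351). It had 0.529 and 0.691 in the Ctrl mice, 0.463 and 0.521 in the Pre-T mice and 1.17 and 1.49 in the Post-T mice. Lymphocyte Foxa3 was 0.301 and 0.299, 0.109 and 0.100, and 0.194 and 0.275 in these groups, below hepatocytes in every mouse. The part of free RNA in these calls was not tested. The 8 other serpins and inhibitors and the 6 protease and platelet receptors had 0 calls by edgeR in Post-T vs Ctrl in hepatocytes. At an unadjusted p under 0.05 they had 2 and 2 genes, beside 5046 of the 21542 genes tested, and DESeq2 called 1 and 0. Their medians in this contrast were -0.56 and 1.24 on the log2 scale, beside 0 for all genes.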

How the data were processed

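Nuclei of 6 snap-frozen livers were sequenced on the 10x Next GEM 3′ v3.1 platform, 1 library per mouse. The authors aligned reads to mm10 with Cell Ranger 6.1.1 and deposited filtered matrices of UMI counts per gene and nucleus, without normalization; whether intronic reads were counted is not given in the sources used here. Kept nuclei had more than 200 and fewer than 5000 genes and under 5% mitochondrial UMIs, the limits of the study's methods. Libraries held 19415498 to 24847537 UMIs in kept nuclei, which sets the counting error of scarce genes.

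Nuclei were clustered in scanpy 1.11.5 (2000 variable genes without the 32 members, 30 principal components, 15 neighbours, Leiden resolution 1, seed 1, leidenalg 0.10.2), and immune clusters were clustered again. A cluster was named when at least 3 markers of a list were raised by a log2 fold of 1 in at least 5% of its nuclei, and called mixed when another list reached 50% of that support. No deposited annotation was used, so shares may differ from the study's own classes. Scrublet called 0 to 2 nuclei per mouse and was not usable; the 5% of nuclei with the highest scores were left out as an alternative, chosen after seeing the data.

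For each mouse and class the UMIs were added up and tested in 1 fit over the 6 mice with edgeR 4.0.16 (quasi-likelihood, TMM, R 4.3.3), with at least 10 UMIs over the mice for pooled nuclei and 3 for a class, Benjamini-Hochberg adjusted over all genes. DESeq2 1.42.0 was an alternative. A level needed 20 nuclei. The difference of an effect between classes was tested with the mouse as a block, with a minimum of 6 UMIs. On simulated counts the fit recovered 67% of genes changed by log2 2 and 92% by log2 3 in hepatocytes, Post-T vs Ctrl (21483 genes), and 82% and 99% in endothelial nuclei (18931 genes). False calls numbered 8 and 4. The changed genes were drawn from genes with many UMIs, and the simulated spread between mice followed the trend over all genes. These rates therefore do not cover scarce members or a gene as uneven between mice as Plat. P-values rest on 2 mice per group.

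The members, marker lists, pathway lists and tests were chosen with earlier results of these data known. All 32 members were named, each with its value in every mouse in its highest class and in each class and contrast where it was called. The exception is F13a1, with only a range in macrophages, its highest class. Of a pathway list, up to 3 called genes with the largest change were named. The counts over the pathway lists include genes whose own values are not reported here. Motifs were searched in RefSeq windows of GRCm38.p6.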

Additional observations from a re-analysis of the deposited data

Results flagged for a closer look

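The effect of a group on a member was compared between hepatocytes and each of 3 other classes of the same mice. Over the 9 comparisons (288 tests of members) 30 differences were called by edgeR at an adjusted p under 0.05, for 9 of the members. Values are log2 effect in the other class minus log2 effect in hepatocytes.

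The effect on Pros1 was larger in hepatocytes in each comparison where a difference was called. None was called in Pre-T vs Ctrl, or for myeloid nuclei in Post-T vs Ctrl. Lymphocytes were not compared in this way, and Pros1 had a log2 fold change of 2.02 there beside 2.00 in hepatocytes in Post-T vs Ctrl. The difference was -0.79 for endothelial nuclei and -1.28 for fibroblasts in Post-T vs Ctrl. In Post-T vs Pre-T it was -1.02 for endothelial nuclei, -1.58 for myeloid nuclei and -1.54 for fibroblasts. The level rose in both hepatocytes and endothelial nuclei, so the sign here is of the size of the rise.

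The effect on Plat was also larger in hepatocytes, with -4.4 in endothelial nuclei and -4.16 in fibroblasts in Post-T vs Ctrl. In Post-T vs Pre-T the values were -2.16 in endothelial nuclei, -1.96 in myeloid nuclei and -2.48 in fibroblasts. The values in Post-T vs Ctrl rest on 3 Plat UMIs in the hepatocyte nuclei of the Ctrl mice. Those in Post-T vs Pre-T rest on 210 in the Pre-T mice, of which only 4 were in Pre-T 2.

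The effect on F11 was more negative outside hepatocytes, by -0.97 in endothelial nuclei in Post-T vs Ctrl, -1.54 in myeloid nuclei in Pre-T vs Ctrl and -1.05 in fibroblasts in Pre-T vs Ctrl. F12 had -1.2 in fibroblasts in Post-T vs Ctrl. The effect on F2r was higher in endothelial nuclei than in hepatocytes, by 1.3 in Post-T vs Ctrl and 1.5 in Post-T vs Pre-T. The effect on Plaur was 2.93 higher in endothelial and 1.71 higher in myeloid nuclei in Post-T vs Pre-T, and -1.75 in myeloid nuclei in Pre-T vs Ctrl. Hepatocytes held only 2.1% to 9.5% of the 141 to 308 Plaur UMIs of a mouse, so these differences rest on few hepatocyte UMIs.

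The endothelial genes Tfpi and F8 had other effects in hepatocytes, where their level was under that of endothelial nuclei in every mouse. Tfpi had -1.53 in endothelial and -2.57 in myeloid nuclei in Post-T vs Ctrl, and -1.88 in endothelial nuclei in Post-T vs Pre-T. F8 had -1.1 in endothelial, -1.36 in myeloid and -2.07 in fibroblast nuclei in Post-T vs Pre-T, and -1.44 in myeloid and -1.24 in fibroblast nuclei in Post-T vs Ctrl. F13a1 had -5.13 in endothelial and -2.18 in myeloid nuclei in Post-T vs Ctrl, and -2.4 in myeloid nuclei in Post-T vs Pre-T, with a level of 0.00221 to 0.0334 in hepatocytes. Endothelial nuclei held 23.3% and 5.26% of the 210 and 38 F13a1 UMIs of Ctrl 1 and Ctrl 2. In Post-T 1 and Post-T 2 they held 0.405% and 4.5% of 247 and 22, so few endothelial F13a1 UMIs came from these mice other than Ctrl 1. The part of free RNA in these differences was not tested.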

How the results depend on the processing

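Of 469 refits of the 29 named results, 335 kept both direction and side of the threshold, 107 lost the call, 26 gained one and 1 reversed, Fga in hepatocytes in Post-T vs Ctrl without Ctrl 1 (0.0153 on the log2 scale, with -1.652 to 0.0153 over the mice left out). Counts of members called are given here for Pre-T vs Ctrl, Post-T vs Ctrl and Post-T vs Pre-T in that order where all 3 moved. For some settings the share of all genes called follows in the same order. A count without such a share cannot be set against all genes and is not read as a result about the members. With DESeq2 they were 9, 8 and 3 in pooled nuclei, 7, 8 and 3 in hepatocytes, 3 and 3 in endothelial nuclei (Pre-T vs Ctrl and Post-T vs Pre-T) and 4 and 2 in fibroblasts (Pre-T and Post-T vs Ctrl). With no count minimum they were 1, 2 and 1 in pooled nuclei, 2, 4 and 2 in hepatocytes, 12, 11 and 4 in myeloid nuclei, 17, 11 and 5 in fibroblasts and 0 in endothelial nuclei in Pre-T vs Ctrl (all genes 0.456%, 3.8% and 1.02% in pooled, 1.08%, 6.21% and 4.73% in hepatocyte, 7.49%, 8.43% and 4.93% in myeloid and 8.09%, 7.12% and 2.99% in fibroblast nuclei). A minimum of 30 UMIs gave 0 in endothelial nuclei in Pre-T vs Ctrl, 0 and 0 in myeloid nuclei (Pre-T and Post-T vs Ctrl) and 4 in fibroblasts in Pre-T vs Ctrl. With RLE normalization Post-T vs Pre-T had 2 in endothelial nuclei.

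The sample labels do not say whether the replicate numbers pair the mice. The correlation of same-numbered deviations was -0.216 between Ctrl and Pre-T, 0.043 between Ctrl and Post-T and 0.063 between Pre-T and Post-T (11700 genes). With 2 mice per group these values cannot decide whether mice were paired. With the replicate block the counts were 0 in pooled nuclei and 4 in hepatocytes in Post-T vs Ctrl, 3 in endothelial nuclei in Pre-T vs Ctrl and 3 in Post-T vs Pre-T, 11, 7 and 2 in myeloid nuclei and 13, 9 and 3 in fibroblasts (all genes 0.00459% in pooled nuclei and 4.19% in hepatocytes, 1.12% and 3.77% in endothelial, 6.71%, 7.31% and 3.52% in myeloid and 7.37%, 6.86% and 2.53% in fibroblast nuclei). A crossed pairing of Ctrl and Pre-T gave 3 in endothelial, 5 in myeloid and 16 in fibroblast nuclei (2.01%, 5.49% and 8.92% of all genes).

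Without the upper limit on genes, Post-T vs Ctrl had 2 in pooled nuclei, 4 in hepatocytes, 8 in endothelial, 5 in myeloid and 4 in fibroblast nuclei, and Post-T vs Pre-T had 3 in endothelial nuclei (3.33%, 5.29%, 10.8%, 7.03%, 3.24% and 7.43% of all genes). Naming each nucleus on its own gave 0 in hepatocytes in Post-T vs Pre-T, 3 in endothelial nuclei in Pre-T vs Ctrl and 0 in fibroblasts in Pre-T vs Ctrl. At resolution 2 there was 1 in hepatocytes in Post-T vs Ctrl, 2 in endothelial nuclei in Post-T vs Pre-T and 1 in myeloid nuclei in Pre-T vs Ctrl. Macrophages alone gave 2 in Post-T vs Ctrl. Without top doublet scores there were 2 in pooled nuclei and 2 in fibroblasts in Post-T vs Ctrl, and 1 in myeloid and 4 in fibroblast nuclei in Pre-T vs Ctrl. Chosen after seeing the data, hepatocytes without their low-depth cluster had 1 call in Post-T vs Ctrl, and hepatocytes with the deep unnamed cluster 0 in Post-T vs Pre-T.

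Leaving out 1 mouse at a time gave 0 to 8, 0 to 3 and 0 to 6 in pooled nuclei, 0 to 9, 0 to 10 and 0 to 8 in hepatocytes, 0 in each case, 0 to 3 and 0 to 1 in endothelial nuclei, 0 to 9, 0 to 5 and 0 to 2 in myeloid nuclei and 1 to 8, 0 to 5 and 0 to 1 in fibroblasts. Differences between classes numbered 7 to 17 of endothelial, 0 to 15 of myeloid and 4 to 26 of fibroblast nuclei against hepatocytes, beside 12, 10 and 8 with all mice. In each of these refits 1 group held a single mouse, and the share of all genes called is not given beside the counts. The counts show how the calls moved with a mouse left out and are not a result about the members. The cause of these changes was not tested. The median of all genes lay at -0.24 and -0.22 on the log2 scale in fibroblasts and -0.15 and -0.16 in lymphocytes in Post-T vs Ctrl and Post-T vs Pre-T. It lay at -0.11 in endothelial nuclei in Post-T vs Pre-T and at 0.10 and -0.10 in myeloid nuclei in Pre-T vs Ctrl and Post-T vs Pre-T, and changes there are relative to these values. Elsewhere, fibroblasts in Pre-T vs Ctrl included, it was within 0.1 of 0. A planned run without Scrublet's called doublets was not made because so few were called. Scarce genes (F3, Plau, Procr, Thbd) are limited by counting error at these depths.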

Other observations

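The deep unnamed cluster, found in Pre-T 1 and Post-T 1, held other members at levels that differed between these mice. Kng2 was 1.31 in Pre-T 1 and 3.89 in Post-T 1, beside 3.27 and 5.90 in hepatocytes of the same mice. Pros1 was 1.35 and 2.97, higher in the Post-T mouse as in hepatocytes. Fgg was 3.40 and 1.11, and F5, the cofactor of factor Xa, 3.83 and 5.01. F11 was 0.220 and 0.307, below the hepatocyte level of both mice.

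Promoter windows of other members held the same letters. The IL-6 response core was found in Kng2, F9 and Tfpi, and the HNF1 motif, present in 0.4% of all windows, in F13b at -55 to -46. No member's window held the HNF4 motif CAAAGTCCA, present in 0.47% of all windows.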
